A study of Mus musculus with 4 samples.

Results

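The genes described here encode the subunits of the mitochondrial respiratory chain and ATP synthase, the machinery of oxidative phosphorylation, in dendritic cells of the mouse colon. Members were chosen by RefSeq symbol: the Nduf genes of complex I, Sdha to Sdhd of complex II, the Uqcr genes of complex III, the Cox4 to Cox8 genes of complex IV and the Atp5 genes of complex V, with pseudogenes left out. Of 90 such symbols, 84 had a named probe on the array, out of 20637 named genes in all: 37 for complex I, 4 for complex II, 8 for complex III, 18 for complex IV and 17 for complex V. Ndufa11b, Ndufb1, Ndufb4b, Ndufb4c, Ndufs6b and Cox6c2 matched the symbols and had no named probe. The symbols decide the complex, so Ndufa4, whose product is now known as a complex IV subunit, stands with complex I, and Ndufa4l2 and Cox7a2l, a paralogue and a supercomplex assembly protein, count as members.

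Oxidative phosphorylation takes electrons from NADH at complex I and from succinate at complex II, passes them through ubiquinone to complex III and through cytochrome c to oxygen at complex IV. Complexes I, III and IV pump protons across the inner mitochondrial membrane, and complex V, the ATP synthase, uses their return to make ATP. Except in complex II, some subunits are encoded by the mitochondrial genome, and those are outside the symbols used here. In dendritic cells the balance between this pathway and glycolysis is known to shift when the cells are activated. The intestinal epithelium beside them is rich in mitochondria and burns butyrate from the microbiota.

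Colonic lamina propria dendritic cells, the antigen-presenting cells of the connective tissue under the epithelium, were freshly sorted from C57BL/6J mice by flow cytometry. The 4 groups had 1 array each: WT mice under SPF housing (specific pathogen-free), CD300a deficient mice under SPF housing, WT mice raised GF (germ-free) and CD300a deficient mice raised GF. CD300a is an inhibitory receptor that binds phosphatidylserine. Per the labels, 5 mice went into each condition, SPF animals were of the female and GF animals of the male sex. Neither an age nor how the deficient mice were made is given in the sources used here. RNA was amplified as cDNA before labelling with Cy3. Both SPF arrays came from slide 1 and scan 1 and both GF arrays from slide 2 and scan 2, so a housing difference and one of slide, scan or labelled sex cannot be told apart, whereas each genotype comparison lies within 1 slide.

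Levels below are log2 signals relative to the 75th percentile of the same array, on which a difference of 1 is 2-fold. A level serves to compare arrays for 1 probe, never 1 gene with another. With 1 array per group no difference between 2 arrays has a replicate check, and the comparisons of arrays are descriptions with no p-value. Spots of the same probe on the same array had a median SD of at most 0.13, which makes 0.18 for a difference between arrays, and that figure covers the spots only.

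Between 13797 and 15055 genes were well above background on an array. The targeted gene, Cd300a, showed no lower signal in the deficient mice and read 7.82 on WT SPF, 7.87 on KO SPF, 7.54 on WT GF and 7.99 on KO GF. The sources used here do not place its probe relative to the deleted part, which leaves the labels untested by it, and these arrays are called KO-labelled. Xist, the RNA of the inactive X chromosome, read 4.81, 5.40, -5.14 and 3.57 in the same order and was well above background on 3 arrays, the KO GF array labelled male among them, while the Y-linked Ddx3y was above background on both GF arrays (2.01 and 0.53). The KO SPF array, labelled female, in turn carried Y-linked Eif2s3y above background (-2.61). Of 15 dendritic cell markers, all 15 were well above background on both SPF arrays and 14 on both GF arrays, where Xcr1 was not. Their summed linear level was 1017 on WT SPF, 1058 on KO SPF, 764 on WT GF and 464 on KO GF. Macrophage markers, all 10 above background on every array, summed to 623, 539, 540 and 295 in the same order. B and plasma markers summed to 40.8, 113, 12.4 and 7.42. T and innate lymphoid markers summed to 7.25, 22.3, 8.90 and 5.66. Both lymphoid sums include markers not above background. The part of these cell types in the subunits' values was not tested. By their raw signals all 12 epithelial markers were at least 2-fold higher on GF than on SPF arrays in both genotypes. Their summed level was 5.95 on WT SPF, 8.77 on KO SPF, 183 on WT GF and 259 on KO GF. On each SPF array 4 of the 12, Cdh1, Slc26a3 and Cdx2 among them, were not above background. For Cdx2 in WT cells the difference has only a lower bound, and that bound is under 2-fold. Cdx2 read -3.49 on WT GF, where the lowest signal well above background on WT SPF was -4.21. In such bulk samples, fewer cells of a type and less RNA per cell cannot be told apart.

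Nearly all subunit genes were read well. Of the 84, 81 were well above background on all 4 arrays and 78 lay in the brightest quartile of named genes. Cox8b, the muscle isoform of subunit 8, was above background on the 2 KO-labelled arrays only, and Cox7b2 and the testis isoform Cox8c on none. Cox7b2 and Cox8c are therefore left out of the comparisons that follow, except with no filter on dim genes. Differences of Cox8b are given as bounds, while its raw signals enter the genotype medians, the counts and the fit across arrays.

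The start regions of the genes were searched for 5 sequence motifs known from nuclear genes of mitochondrial proteins. RefSeq windows (GRCm38.p6) of 300 bases, from 250 before to 50 after the start, matched 68 of the 84 members. The NRF1 motif, searched as GCATGCGC on both strands, was in the windows of 10 of 68 members or 14.7%, against 3.05% of 27025 symbols in the table and 5.40% of 10304 named genes above background on all 4 arrays. The YY1 motif (AAGATGGC) stood at 14.7% of members as well, against 3.19% and 4.98%. The GABPA motif (CCGGAAGT) stood at 7.35% against 4.31% and 8.34%, the CREB motif (TGACGTCA) at 5.88% against 2.03% and 3.38%, and the ERR motif (TCAAGGTCA) at 2.94% against 0.466% and 0.349%. At least 1 of the 5 was found for 29 members, 42.6%, against 12% of the table and 20.3% of the genes above background. The ribosome lists had like shares, 43.5% for the mitochondrial and 39.1% for the cytosolic ribosome, and the mitochondrial ribosome held the YY1 letters in 17.4% and the NRF1 letters in 11.6% of windows. The Krebs cycle and pyruvate dehydrogenase genes had a lower share, 4 of 16 or 25%. GCATGCGC can overlap itself on the opposite strand, and such a pair was counted as 1 gene. Members of complex IV held any of the 5 motifs in 2 of 13 windows and the YY1 letters in none, where complex I held YY1 in 7 of 32. A match is a description of the letters and not a site.

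Of the 10 members with the NRF1 letters, 6 had them within the last 120 bases before the start, and those stretches are shown because 2 of them, Ndufa11 and Atp5k, belong to genes that were at least 2-fold higher on a GF array. Each runs 5′ to 3′ on the strand of the gene up to the base before the start, and capitals mark the NRF1 letters on either strand.
Ndufa11, chr17:56717642-56717761, plus strand: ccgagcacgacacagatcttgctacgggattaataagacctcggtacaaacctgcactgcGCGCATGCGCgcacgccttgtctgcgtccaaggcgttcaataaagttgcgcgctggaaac
Ndufa6, chr15:82354292-82354411, minus strand: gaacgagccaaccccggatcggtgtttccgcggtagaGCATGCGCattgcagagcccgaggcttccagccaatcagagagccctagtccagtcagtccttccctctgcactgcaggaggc
Ndufa8, chr2:36049339-36049458, minus strand: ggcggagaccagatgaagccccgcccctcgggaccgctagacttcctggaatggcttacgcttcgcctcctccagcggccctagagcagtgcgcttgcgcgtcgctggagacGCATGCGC
Sdhb, chr4:140961151-140961270, plus strand: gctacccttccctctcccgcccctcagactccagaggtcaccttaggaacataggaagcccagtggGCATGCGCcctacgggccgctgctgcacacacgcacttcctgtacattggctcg
Atp5g2, chr15:102671048-102671167, minus strand: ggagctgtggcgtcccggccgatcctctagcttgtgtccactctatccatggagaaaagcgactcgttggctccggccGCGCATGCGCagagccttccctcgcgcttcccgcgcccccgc
Atp5k, chr5:108434400-108434519, minus strand: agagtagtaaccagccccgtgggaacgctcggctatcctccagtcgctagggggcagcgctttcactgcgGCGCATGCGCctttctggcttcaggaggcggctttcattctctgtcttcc

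In Ndufa11, Atp5g2 and Atp5k the letters overlapped on both strands and made the palindrome GCGCATGCGC. These 3 genes did not move alike between housings. Ndufa11 differed by 1.18 in WT and 1.20 in KO-labelled cells and Atp5k by 0.84 and 1.10, whereas Atp5g2 differed by 0.10 and -0.25. Ndufa6 differed by 0.80 and 0.79, Ndufa8 by -0.42 and -0.51, and Sdhb by -0.28 and 0.02. Over all 10 members with the NRF1 letters the median housing difference was 0.22 in WT and 0.41 in KO-labelled cells, beside 0.48 over 56 and 0.19 over 57 members whose window lacked them.

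The difference between genotypes was small in nearly every subunit gene under both housings. Under SPF housing the median over 82 measured members was -0.11 (KO-labelled minus WT), beside -0.05 over all 14877 genes measured in that pair, with the members' quartiles at -0.24 and 0.08. No member measured on both arrays was at least 2-fold different. Cox8b, not above background on WT SPF, had a bound of at least 1.91-fold higher and is the 1 member past 2-fold by its raw signals, where 5.74% of all genes were higher and 6.49% lower by that much. Under GF housing the median was -0.16, beside -0.20 over all genes. Cox6b2 alone was at least 2-fold lower and none higher, where the background was 7.7% lower and 8.84% higher. That background depends on the scaling: 1387 genes were higher and 1209 lower here, 2291 and 571 in the deposited table, and 903 and 2506 after median scaling. In the SPF pair 27 of 82 members lay above 0, against 45.6% of all genes, and in the GF pair 14 of 82 against 39.2%. The sign of the GF median depended on the scaling between arrays: it was 0.21 after quantile scaling, 0.26 after cyclic loess and 0.12 in the deposited table, with 63, 67 and 58 of 82 members above 0. The direction of a single subunit in that pair, here and below, therefore holds for the 75th percentile scaling only unless said otherwise. Of all named genes in the brightest quartile, where most subunits lie, the median was 0.01 in the SPF pair and -0.45 in the GF pair. The members in it stood at -0.11 and -0.17. Of all genes in that quartile 51.4% lay above 0 in the SPF pair and 21.5% in the GF pair.

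The difference between housings was larger and ran upward in most subunits. All 12 epithelial markers were higher on the same GF arrays, and their part in the subunits' housing differences was not tested. In WT cells the median over 81 members was 0.45 (GF minus SPF), beside 0.13 over all genes, and 60 of 81 were above 0, against 56.4% of all genes. Ndufa12, Cox6b1, Cox6a1, Cox7a1, Ndufa11, Cox6b2, Ndufs1 and Atp5j2 were at least 2-fold higher, 8 members where the background was 17.5%, and Cox6a2 was the 1 member at least 2-fold lower where the background was 9.44%. In KO-labelled cells the median over 82 members was 0.19, beside 0.04 over all genes, and 53 of 82 were above 0, against 51.6%. Cox7a1, Cox6b1, Cox6a1, Ndufa11, Ndufs1, Atp5k, Cox7b, Ndufa12, Uqcr10 and Uqcrb made 10 members at least 2-fold higher, and none was 2-fold lower, where 21.4% and 15.6% of all genes were (3337 and 2436, against 4613 and 1501 in the deposited table and 2588 and 3503 after median scaling). The share of subunits at least 2-fold higher thus lay below that of all genes in both genotypes, while their medians lay above it. That order of the shares turned in KO-labelled cells with quantile scaling (20 of 82 members, 2908 of 15572 genes) and cyclic loess (23 of 82, 3243 of 15572). With normexp it turned in WT cells (8 of 81, 996 of 15656) and in KO-labelled cells (11 of 82, 1197 of 15572). Within the brightest quartile of named genes the median of all genes was 0.02 in WT and -0.32 in KO-labelled cells, beside 0.45 and 0.20 for the members there, and 8.23% and 6.37% of those genes were 2-fold higher, beside 7 and 10 of 73 members. The median in KO-labelled cells was -0.09 when arrays were scaled on their median and 0.51 after quantile scaling. It was 0.62 after cyclic loess and 0.54 in the deposited table. Relative to all genes it stayed between 0.15 and 0.50 under the 9 settings compared. Members above 0 in that pair numbered 39 of 82 with median scaling, 68 with quantile scaling, and 69 with cyclic loess and in the deposited table. The direction of a small difference of a single subunit in that pair, here and below, therefore depends on the scaling.

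**Figure D1:**
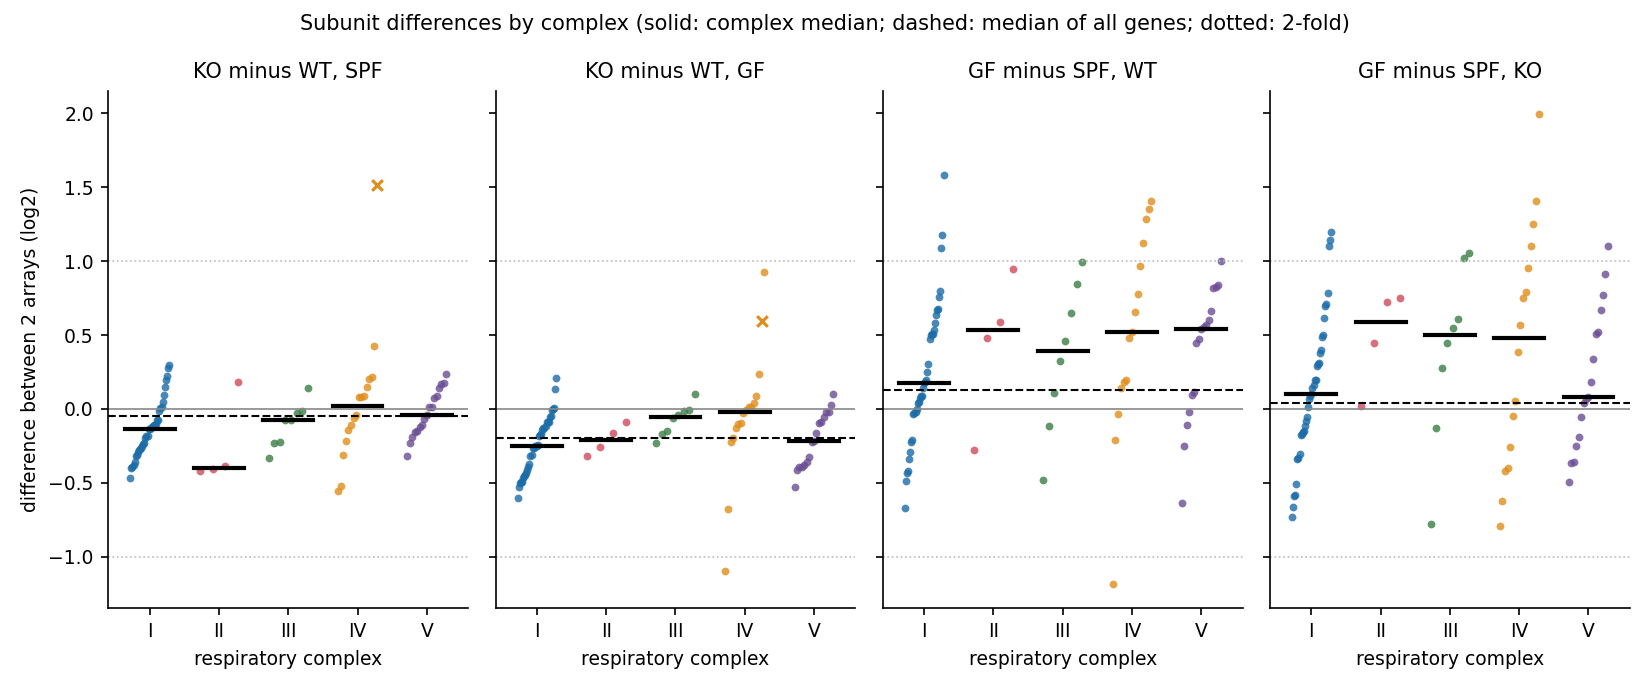
Difference between 2 arrays (log2) for each measured subunit gene, by respiratory complex, in the 4 comparisons; each point is 1 gene, solid bars are the complex medians, the dashed line the median of all genes and dotted lines 2-fold. Crosses mark Cox8b, not above background on the WT array, whose plotted difference is no measured fold. Every genotype difference measured on both arrays lies within 2-fold except Cox6b2 under GF (-1.10), and in both housing comparisons complex I has a lower median than complexes II, III and IV.

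The 5 complexes differed in their housing medians. In WT cells the median was 0.18 for complex I, 0.53 for complex II, 0.39 for complex III, 0.52 for complex IV and 0.54 for complex V. Relative to all genes these stood at 0.05, 0.41, 0.27, 0.39 and 0.41. In KO-labelled cells the medians were 0.10, 0.59, 0.50, 0.48 and 0.08, which relative to all genes made 0.06, 0.54, 0.46, 0.44 and 0.04. Complex I lay below complexes II, III and IV in both genotypes under all 9 settings compared (the scalings, the deposited table, the background correction, the filters and the probe rule). Complex V was near the top in WT and near complex I in KO-labelled cells. Under SPF housing the medians of KO-labelled minus WT were -0.13, -0.40, -0.07, 0.02 and -0.04 in the order I to V, with complex II the lowest under all 9 settings. Relative to all genes complex IV stood at 0.07 and complex V at 0.01 in that pair. Both turned below 0 with quantile scaling, cyclic loess, normexp and the filter on all 4 arrays above background, and complex V also with no filter. Under GF housing the medians were -0.25, -0.21, -0.05, -0.02 and -0.22, and complex I was below II, III and IV under 8 of the 9 settings, all but normexp background correction. Complex II has only 4 members, and the order of the complexes was not tested.

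Complex I carries the entry of electrons from NADH on 7 nuclear core subunits, with the rest accessory. All 7 core subunits, Ndufs1, Ndufs7 and Ndufv1 among them, were lower on the KO SPF than on the WT SPF array, with a median of -0.26 and the lowest difference in Ndufs7 (-0.38). Under GF housing 6 of the 7 were lower and Ndufv1 was not, with a median of -0.24, close to the -0.20 of all genes. Of 28 accessory subunits 20 were below 0 in the SPF pair and 25 in the GF pair. Of all genes 45.6% and 39.2% were above 0 in these pairs, and of those in the brightest quartile 51.4% and 21.5%. Ndufa9, an accessory subunit near the ubiquinone site, had the lowest SPF difference of the complex: it read 3.04 on WT SPF, 2.57 on KO SPF, 3.01 on WT GF and 2.88 on KO GF. Ndufa10 had the highest, with 1.12, 1.41, 1.61 and 1.5 in the same order. Both differences were within 0.5. Under GF housing that of Ndufa9 kept its sign but was smaller (-0.13), and that of Ndufa10 turned (-0.11), both within the 0.18 between spots. The extremes of the GF pair were Ndufa4, with 4.47, 4.20, 4.14 and 3.53, and Ndufv1, with 2.65, 2.41, 2.69 and 2.90. Ndufa4 was lower on the KO-labelled array under both housings (-0.28 and -0.60). Ndufa4l2, its hypoxia-induced paralogue, stayed within -2.97 and -2.82 on all 4 arrays.

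Between housings complex I divided. Ndufa12, an accessory subunit of the arm that oxidises NADH, read 2.85 on WT SPF and 3.07 on KO SPF against 4.43 on WT GF and 4.17 on KO GF. Ndufa11, an accessory subunit of the membrane arm, read 1.84 and 1.83 on the SPF arrays and 3.02 and 3.03 on the GF arrays. Ndufs1, the largest iron-sulfur subunit, read 1.29 and 1.0 against 2.38 and 2.14. In each of these 3 genes each GF array stood 1.09 to 1.58 above the SPF array of the same genotype, and they were the members of complex I at least 2-fold higher in either genotype. At the other end Ndufb9, an accessory subunit, read 2.83 and 2.48 on the SPF arrays against 2.16 and 2.30 on the GF arrays, a difference of -0.67 in WT and -0.18 in KO-labelled cells. Ndufb11, an X-linked accessory subunit, read 4.01, 4.29, 4.09 and 3.56, so that its housing difference was 0.08 in WT and -0.73 in KO-labelled cells. In all, 26 of 37 members were above 0 in WT and 22 in KO-labelled cells, beside 56.4% and 51.6% of all genes.

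Complex II, succinate dehydrogenase, also belongs to the Krebs cycle. Sdha, the flavoprotein, read 2.32 on WT SPF, 2.50 on KO SPF, 3.26 on WT GF and 2.94 on KO GF, and its difference between housings was 0.94 in WT and 0.45 in KO-labelled cells. Sdhb, the iron-sulfur subunit, read 2.31, 1.93, 2.03 and 1.94, with housing differences of -0.28 and 0.02. The membrane anchor Sdhc read 3.97, 3.55, 4.56 and 4.30. Its partner Sdhd read 3.77, 3.36, 4.25 and 4.08. For both anchors the KO SPF array was the lowest of the 4 and both GF arrays were above both SPF arrays. Their KO-labelled minus WT differences were -0.42 and -0.41 under SPF and -0.26 and -0.16 under GF housing. The other probe of Sdhc gave -0.46 and -0.36, but the other probe of Sdhb gave 0.03 under SPF housing where its brightest probe gave -0.39.

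In complex III, the cytochrome bc1 complex, genotype differences were small. Its 8 members lay between -0.34 (Uqcrc1) and 0.14 (Uqcrh) in the SPF pair and between -0.23 (Uqcrq) and 0.10 (Uqcrb) in the GF pair. The core proteins Uqcrc1 and Uqcrc2 read 2.75, 2.42, 2.86 and 2.69 and 3.54, 3.53, 4.20 and 4.13 on WT SPF, KO SPF, WT GF and KO GF. The Rieske protein Uqcrfs1 read 3.80, 3.77, 4.26 and 4.22. Uqcrc2 and Uqcrfs1 were thus higher on both GF arrays, by 0.65 and 0.61 and by 0.46 and 0.45. Among the small subunits, Uqcr10 read 4.54 and 4.47 on the SPF arrays and 5.54 and 5.53 on the GF arrays. Uqcrb, which lines the ubiquinone site, read 5.15 and 5.08 against 6.00 and 6.10, and its other 2 probes differed by 0.78 and 1.12 in WT and by 1.03 and 1.09 in KO-labelled cells. The other 2 probes of Uqcr10 gave smaller differences of 0.13 and 0.24 in WT and 0.43 and 0.53 in KO-labelled cells. Uqcrh, the hinge protein, went the other way, with 5.72 and 5.86 on the SPF arrays and 5.24 and 5.09 on the GF arrays, and its other probe gave -0.39 and -0.93.

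Complex IV, cytochrome c oxidase, has many subunits that exist as isoforms of different tissues. The 10 widely expressed subunits had a median housing difference of 0.59 in WT and 0.66 in KO-labelled cells. In WT 9 of 10 were above 0 and in KO-labelled cells 8 of 10, beside 56.4% and 51.6% of all genes. Cox6b1 read 2.51 on WT SPF, 2.29 on KO SPF, 3.92 on WT GF and 3.70 on KO GF. Cox6a1 read 5.78, 5.92, 7.13 and 7.17. Cox7b, which is X-linked, read 3.62, 3.31, 4.40 and 4.42. In all 3 genes both GF arrays stood above both SPF arrays, and the genotypes were within 0.32 of each other under each housing. Cox6c was the lowest of the 10 in both genotypes, at -0.21 and -0.26. The supercomplex protein Cox7a2l read 7.20, 7.29, 7.17 and 6.49, so that the KO GF array alone was lower. All 3 of its probes gave this, with KO-labelled minus WT differences under GF housing of -0.67, -0.68 and -0.78.

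The tissue-restricted isoforms of complex IV did not share a direction. Cox7a1, the isoform of heart and skeletal muscle, read 0.65 on WT SPF, 0.87 on KO SPF, 1.94 on WT GF and 2.86 on KO GF, and had the highest difference of any member between GF and SPF in KO-labelled cells (2.0). Cox6a2, the muscle partner of Cox6a1, read -0.53, -1.08, -1.71 and -1.70, lower on both GF arrays while Cox6a1 was higher on both. Cox6b2, the testis isoform of subunit 6b, read 0.92, 1.34, 2.04 and 0.94, with the WT GF array standing alone. Its genotype difference was 0.42 under SPF and -1.10 under GF housing, a gap of 1.52 and the only 1 of 82 members past 2-fold in that contrast, where 12.8% of all genes passed 2-fold upward and 10.1% downward. Cox4i2, the lung isoform of subunit 4, read -1.33, -1.85, -1.14 and -0.90. Cox8b was measured on the KO-labelled arrays only (-3.27 and -3.69), and against the floor of the WT arrays it was at least 1.91-fold higher under SPF and at least 1.26-fold higher under GF housing. The summed level of 10 fibroblast and smooth muscle markers, all above background on all 4 arrays, was 32.6 on WT SPF, 21.2 on KO SPF, 32.1 on WT GF and 30.8 on KO GF. Its part in the values of the muscle isoforms was not tested.

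**Figure D2:**
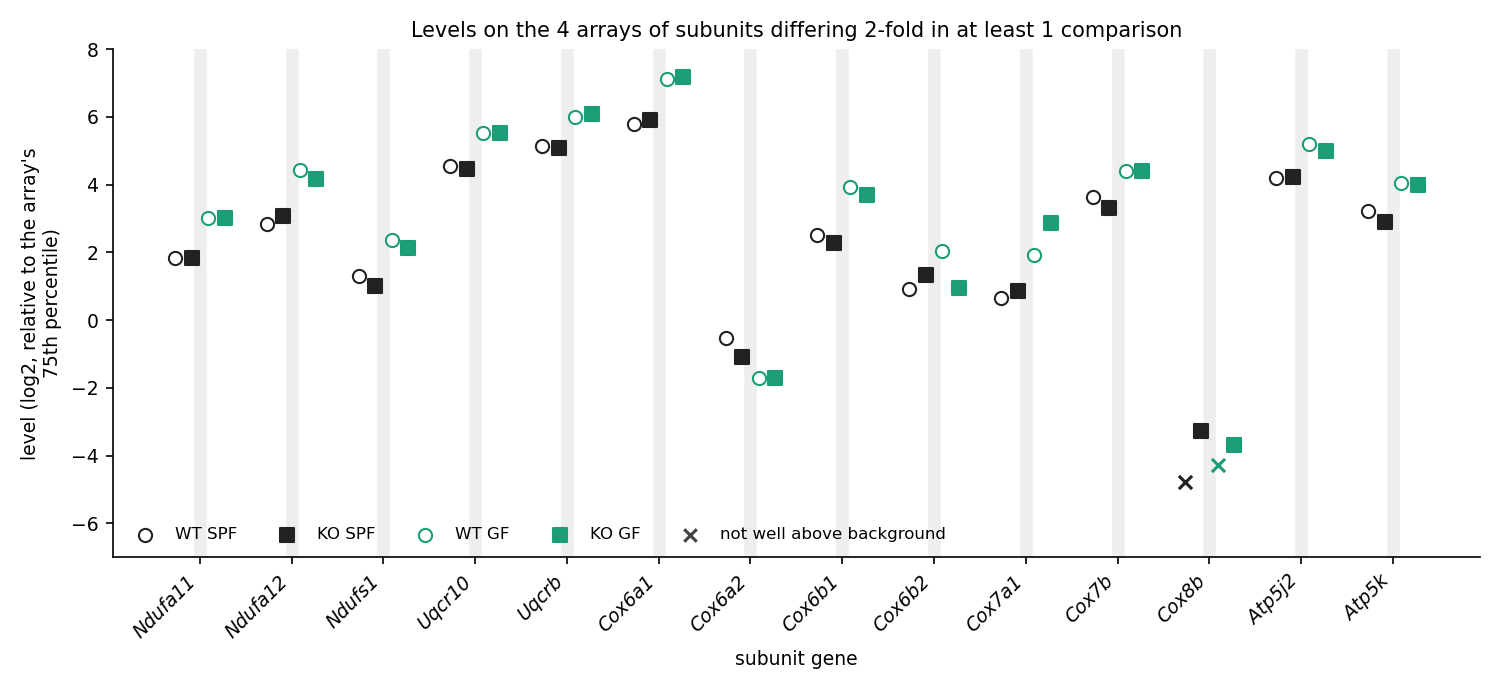
Level on each of the 4 arrays (log2, relative to the array's 75th percentile) of the 14 subunit genes at least 2-fold different in at least 1 comparison; circles are WT, squares KO-labelled, black SPF, green GF, and crosses mark probes not well above background. In 11 of the 14 both GF arrays lie above both SPF arrays, the exceptions being Cox6a2, Cox6b2 and Cox8b.

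In complex V the groups of subunits differed between housings to different degrees. The peripheral stalk subunits Atp5h, Atp5j, Atp5o and Atp5pb were all above 0 in both genotypes, with medians of 0.69 in WT and 0.30 in KO-labelled cells. In KO-labelled cells Atp5pb (0.04) and Atp5j (0.08) lay within the 0.18 between spots, as did Atp5j in WT (0.11). Atp5o read 0.82 on WT SPF, 0.84 on KO SPF, 1.65 on WT GF and 1.76 on KO GF. Atp5h read 5.65, 5.42, 6.47 and 5.94, and was the lowest member of complex V in the GF genotype pair (-0.53). Among the small membrane subunits Atp5j2 read 4.20, 4.22, 5.21 and 4.99, and Atp5k, a dimer subunit, read 3.22, 2.90, 4.06 and 4.0. Both were higher on both GF arrays. The other probe of Atp5j2 gave 1.22 and 1.25 and that of Atp5k 0.39 and 0.70, in the same direction as the brightest. Atp5md read 4.18, 4.42, 4.74 and 4.36, with the WT GF array the highest.

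The c-ring genes Atp5g1, Atp5g2 and Atp5g3 encode the same mature subunit and differed in direction. Atp5g1 read 3.47 and 3.36 on the SPF arrays against 2.84 and 2.87 on the GF arrays, the lowest housing differences of complex V (-0.63 and -0.49). Atp5g3 read 4.36 and 4.22 against 4.90 and 4.88, higher by 0.54 and 0.67. Atp5g2 lay between them. In the catalytic head, Atp5b read 4.22, 4.40, 4.20 and 4.04 and Atp5a1 read 6.00, 5.84, 5.75 and 5.65, so that the beta and the alpha subunit were the 2 of 5 head subunits below 0 in both genotypes, while Atp5c1, Atp5d and Atp5e were above 0 in both. The other probe of Atp5c1 gave -0.81 and -1.08 where the brightest gave 0.60 and 0.07. The median of the head turned below 0 in both genotypes with the mean of a gene's probes, and in KO-labelled cells also with median scaling. All 5 head subunits were lower on the KO GF than on the WT GF array, by -0.02 (Atp5d) to -0.41 (Atp5e), but their median of -0.16 turned above 0 with quantile scaling, cyclic loess and the deposited table.

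**Figure D3:**
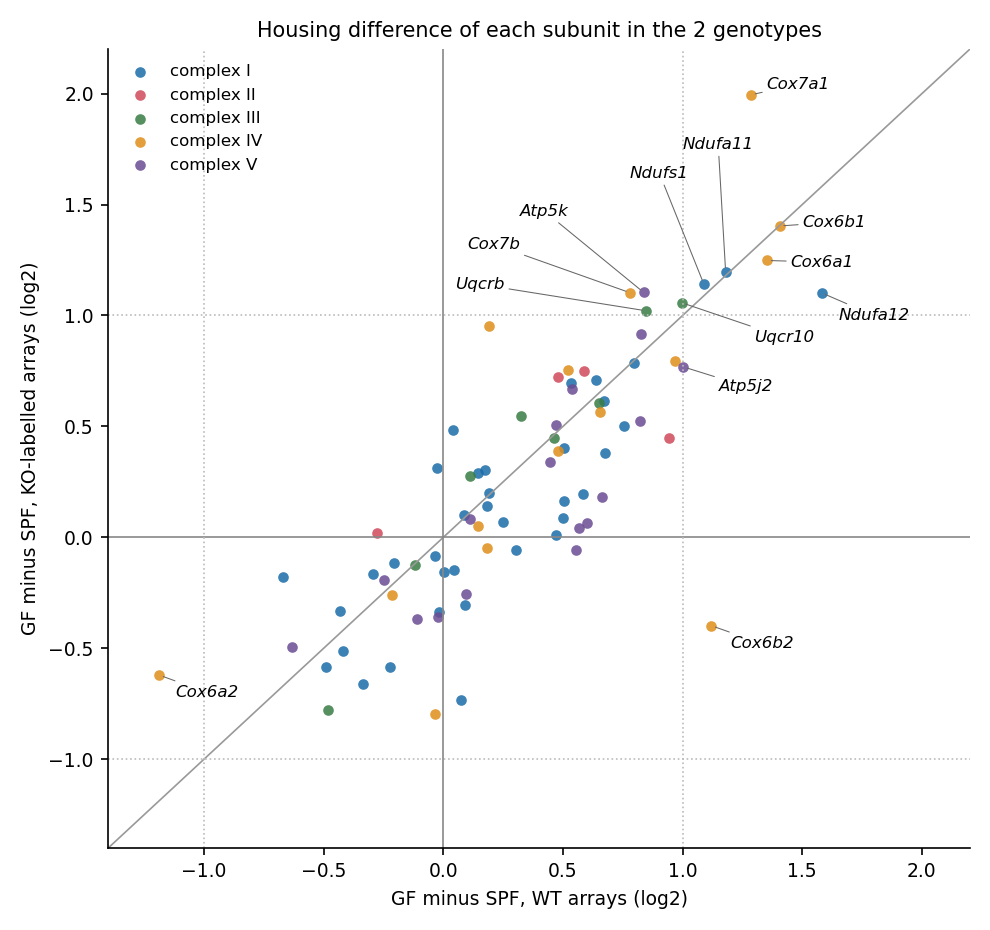
GF minus SPF difference (log2) of each of 81 subunit genes in WT cells (horizontal) and KO-labelled cells (vertical), coloured by complex; the diagonal marks equal differences and dotted lines 2-fold. Points follow the diagonal (r 0.81), 70 of 81 have the same sign, and Cox6b2 is the labelled gene in the lower right.

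The housing difference of a subunit in WT cells went with that in KO-labelled cells, 2 pairs that share no array. Over 81 members Pearson's r was 0.81 and Spearman's rho 0.82, against 0.75 and 0.64 over 14856 genes, and 70 of the 81 had the same sign, 86.4% beside 72.2% of all genes. At least 2-fold higher in both genotypes were Ndufa11, Ndufa12, Ndufs1, Cox6a1, Cox6b1 and Cox7a1, 6 members beside 11.1% of all genes. The sign was the same in 8 of 8 members of complex III, 31 of 37 of complex I, 13 of 15 of complex IV and 15 of 17 of complex V. These points are genes and not replicates, and both pairs share the slides, the scans and the probes. The genotype difference did not carry over in this way. Between the SPF and the GF pair r was 0.14 and rho -0.005 over 82 members, against 0.02 and 0.003 over 14202 genes, and 51 of 82 members had the same sign, 46 of them below 0 in both, beside 7452 and 4991 of the 14202 genes.

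In a fit across all 4 arrays with limma (moderated test, Benjamini-Hochberg adjustment over 15029 genes), no subunit of 82 passed an adjusted p of 0.05 for genotype averaged over housing, and 1 had an unadjusted p under 0.05. That 1 was Cox8b, which was not above background on either WT array, so its fitted difference is no measured fold. Over all genes 29 passed, 0.193%, and no other setting called a subunit for genotype. For housing averaged over genotype 4 of 82 subunits passed, all higher on GF arrays, where 18% of all genes passed. Cox7a1 differed by 1.64 (SE 0.41, adjusted p 0.0108), Cox6b1 by 1.40 (SE 0.40, adjusted p 0.0230), Ndufa12 by 1.34 (SE 0.40, adjusted p 0.0310) and Cox6a1 by 1.30 (SE 0.40, adjusted p 0.0342). The fit leaves 1 residual degree of freedom, the genotype by housing interaction, and its SE is not a spread between replicates. The count of subunits called ranged from 1 under median scaling, in the deposited table and with no filter to 11 under normexp background correction.

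The probes of a gene did not always give the same housing difference. Of the members 22 had several probes, with 29 other probes above background on all 4 arrays. The median distance of such a probe from the brightest was 0.12 for the genotype difference and 0.43 for the housing difference. In the housing pairs 14 of 29 in WT and 13 of 29 in KO-labelled cells had the opposite sign to the brightest probe. Cox7c, a small subunit of complex IV, was the widest case. Its brightest probe read 4.98, 5.07, 5.46 and 5.45 on WT SPF, KO SPF, WT GF and KO GF, higher by 0.48 and 0.39 on the GF arrays. A second probe read 3.47, 3.47, 2.18 and 2.18 and another 3.06, 3.02, 1.30 and 1.27, lower on the GF arrays by -1.29 and -1.29 and by -1.76 and -1.75. In the genotype comparisons all 3 probes of Cox7c lay between -0.04 and 0.08. Opposite signs in both genotypes were also found for probes of Atp5c1, Atp5l, Ndufa5, Ndufb4 and Uqcrq. For Ndufa5, for example, the brightest probe gave -0.03 and -0.08 and the other 1.07 and 1.41. Where the brightest probe was beyond 0.5, the other probe had its sign in 12 of 13 cases in WT and 12 of 14 in KO-labelled cells.

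**Figure D4:**
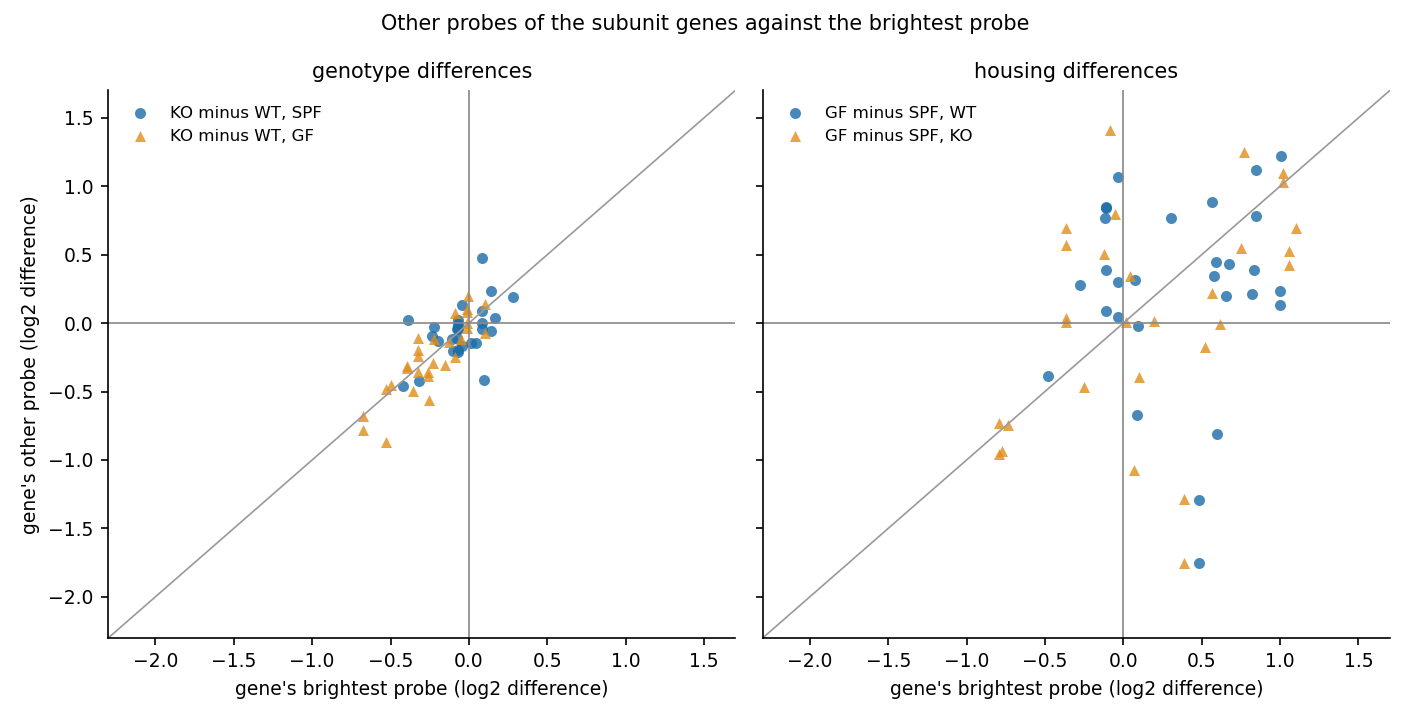
Difference given by each of 29 other probes (vertical, log2) against that of the brightest probe of the same subunit gene (horizontal), for genotype (left) and housing (right); the diagonal marks equal differences. Genotype differences lie near the diagonal (median distance 0.12), housing differences spread further (0.43), and the lowest points on the right are the 2 other probes of Cox7c.

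Other mitochondrial genes were set beside the subunits. The Krebs cycle and pyruvate dehydrogenase genes had the highest housing medians of the lists compared, 0.69 over 17 in WT and 0.80 over 18 in KO-labelled cells. In each genotype 15 were above 0, beside 56.4% and 51.6% of all genes. Cs, citrate synthase, read 2.0 and 2.11 on the SPF arrays and 3.01 and 3.35 on the GF arrays. Suclg2, Cs and Pdha1 were at least 2-fold higher in both genotypes, Sucla2 and Dlat in WT and, among others, Pcx in KO-labelled cells. Pcx, pyruvate carboxylase, was above background on the KO GF array only, where it was at least 2.76-fold higher than on the KO SPF array. The electron carriers, coenzyme Q genes and the acyl carrier Ndufab1 stood at 0.36 and 0.50. Mitochondrial ribosome genes stood at 0.17 over 77 in WT and -0.12 in KO-labelled cells, beside 0.13 and 0.04 for all genes.

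In the GF genotype pair the ribosome and assembly factor lists lay further below 0 than the subunits. The cytosolic ribosome genes had a median of -0.69 with 81 of 83 below 0, and were at least 2-fold lower between housings in KO-labelled cells in 30 of 83 cases (median -0.81), where no subunit was. The mitochondrial ribosome stood at -0.48 in the GF genotype pair with 70 of 77 below 0. Of all genes in that pair 39.2% were above 0, and of those in the brightest quartile 21.5%. The assembly factors of complex I, II, III, IV and V had GF genotype medians of -0.42, -0.76, -0.47, -0.33 and -0.48, each below the median of the complex they build, and each was below that of all genes under all 9 settings. Under SPF housing the cytosolic ribosome was at 0.19 and the mitochondrial ribosome at -0.19. The ADP, phosphate and uncoupling carriers parted: Slc25a3, the phosphate carrier, was lower on GF arrays by -1.02 and -1.36, whereas Slc25a5, an ADP/ATP carrier, was higher by 0.74 and 0.43.

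Among 15 regulators of mitochondrial biogenesis, Ppargc1a, which encodes the coactivator PGC-1α, was above background on the GF arrays only. It read -1.03 on WT GF and 1.35 on KO GF, at least 9.07-fold and at least 38.3-fold above the SPF arrays of the same genotype. Esrrg, a nuclear receptor that PGC-1α binds, was likewise above background on GF arrays only, at least 3.16-fold and 2.05-fold higher. Tfam, which packages and transcribes mitochondrial DNA, read -0.75, -0.57, 0.82 and 0.48. In contrast Perm1 was above background on the SPF arrays only. It was at least 2.26-fold lower on WT GF and at least 1.89-fold lower on KO GF than on the SPF array of the same genotype. Myc was lower on GF arrays by -0.72 and -1.0. Gabpa, an activator of subunit genes, was lower by -0.36 and -0.87, and Yy1 by -0.21 and -0.52. Of the 15 regulators, 10 were above 0 in WT and 9 in KO-labelled cells, beside 56.4% and 51.6% of all genes. The list as a whole had medians of 0.25 and 0.26. Ppargc1a and Esrrg were higher on the same arrays as the 12 epithelial markers, whose part in the values of Krebs cycle genes and regulators was not tested.

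**Figure D5:**
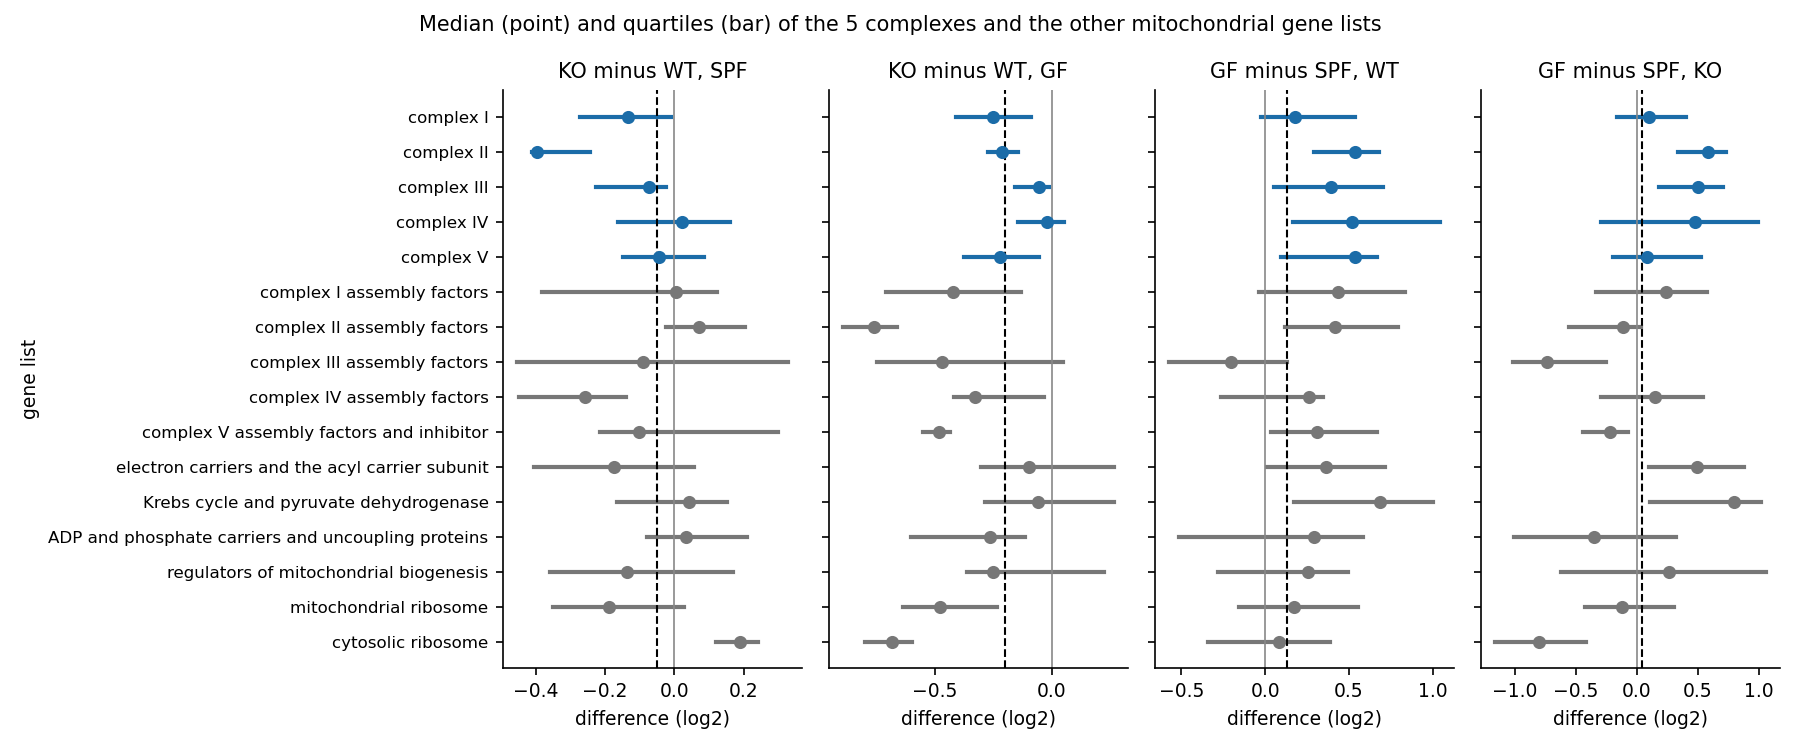
Median (point) and quartiles (bar) of the log2 difference in each of the 4 comparisons for the 5 complexes (blue) and 11 other gene lists (grey); the dashed line is the median of all genes and horizontal scales differ between panels. The Krebs cycle list has the highest housing medians (0.69 and 0.80), and the cytosolic ribosome the lowest in KO-labelled cells (-0.81).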

How the data were processed

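Feature Extraction 10.10.1.1 (protocol GE1_1010_Sep10, design build mm9) made the scanner files, per the file headers. The deposited intensity is its background-subtracted processed signal of 1 colour, not scaled between arrays. The deposited table holds the same intensity times 1 constant per array, by a rule not given in the sources used here. It is linear with genes not centred, and its array medians are 237.2, 216.3, 235.7 and 331.4. Of 62976 spots, control spots (3671) and outlier flags were left out, and spots of a probe were averaged. The log2 signal minus the array's 75th percentile was taken, probes were named by RefSeq accession (27191 of 55597 probes, 28406 unnamed), and the brightest probe stood for a gene. A gene entered a pair of arrays if well above background on at least 1 of them. A probe below background on 1 array of a pair has a bound: the bright level over the higher of its own level and the lowest signal well above background there. No spot was saturated.

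limma 3.58.1 in R 4.3.3 fitted genotype and housing additively, with adjustment over all genes. It was also run on simulated data with independent noise and no housing effect or interaction. Such data cannot show how the fit behaves here, where its only residual is the interaction. Differences, medians and motif matches were computed with Python 3.11.15, numpy 2.4.6 and pandas 2.3.3. Named genes were, in each pair, members at least 2-fold different and the highest and lowest of each complex. Tissue-restricted isoforms were named whatever their values, as were some probes that disagreed in direction. Of the other lists only some of the highest, lowest and 2-fold genes are named, and none of the assembly factors. Other genes named, such as Sdhc, Uqcrc2, Cs, Tfam, Gabpa and Yy1, were chosen after their values were seen. Members and lists were chosen with earlier results of these data known. Alternatives were quantile, cyclic loess and median scaling, the deposited table, normexp background correction (offset 50), the filter on dim genes, the mean of a gene's probes and a 1.5-fold threshold. Normexp on mean signals was not run; median signals replaced them, a choice made after seeing the data. The number of arrays, 1 per group, limits the precision. Values of some single genes are not reported here.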

Additional observations from a re-analysis of the deposited data

Results flagged for a closer look

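Some subunits went opposite ways in the paired comparisons, with 1 array behind each group, and the difference was not tested for any of them. KO-labelled minus WT was 0.23 under SPF and -0.25 under GF housing for Ndufa12, 0.28 and -0.53 for Ndufb11, and -0.24 and 0.21 for Ndufv1. It was -0.52 and 0.24 for Cox4i2, 0.42 and -1.10 for Cox6b2, and 0.23 and -0.38 for Atp5md. GF minus SPF for Cox6b2 was 1.12 in WT and -0.40 in KO-labelled cells. Over 7 settings that change a value (the scalings, the deposited table, normexp and the mean of probes) the signs were opposite in all 7 for Ndufb11, Cox4i2 and both results of Cox6b2, in 6 for Ndufv1, in 5 for Atp5md and in 4 for Ndufa12. For Ndufa12 the GF difference was 0.16 with quantile scaling, 0.19 with cyclic loess and 0.03 in the deposited table.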

How the results depend on the processing

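No paired analysis was possible because each group has 1 array and the labels give no replicate numbers; genotype was fitted with housing, and so slide, as a term. Of 274 values for the set, its complexes and its counts, 225 moved by less than the spread between spots (counts by under 1.5 times) and 49 by more. The sign turned in 28, of which 15 lay within that spread, and for most of these the cause was not tested. Medians of complexes here are relative to all genes, in the order I to V. With quantile scaling the members' median became 0.21 in the GF genotype pair and 0.51 between housings in KO-labelled cells, with 20 members past 2-fold there. The complexes stood at 0.16, 0.23, 0.42, 0.36 and 0.28 in the first and 0.35, 0.89, 0.84, 0.82 and 0.41 in the second pair, the median gap between genotype differences at -0.35, and limma called 2 members for housing. With cyclic loess the medians became 0.26 and 0.62, with 23 members past 2-fold. Complexes I, II, III and V stood at 0.17, 0.22, 0.38 and 0.19 in the first pair, all 5 at 0.31, 0.87, 0.81, 0.74 and 0.39 in the second, and the gap at -0.38. With median scaling the medians became -0.39 and -0.088, with 5 members past 2-fold, a gap of 0.33 and 1 member called. In the deposited table they became 0.12 and 0.54, with 21 members, a gap of -0.33 and 1 member called. Normexp left 0 members past 2-fold in both genotype pairs and called 11 for housing. Requiring all 4 arrays above background left 0 members past 2-fold in the SPF genotype pair, since Cox8b is not tested, and put complex IV at 0.64 between housings in KO-labelled cells. No filter gave 0.21 there and 1 member called, and the mean of probes 0.19. A 1.5-fold threshold gave 5 members in the GF genotype pair and 29 in each housing pair. Among values of single members 25 became weaker, 11 stronger and 67 moved. Levels near background bound Cox8b and hide Cox7b2 and Cox8c.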
